A study of Mus musculus with 8 samples.

Results

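Heart muscle draws most of its energy from fatty acids, and 33 genes of that route were followed here across 8 arrays of mouse heart RNA. They were listed by name for their known roles, with earlier results of these data known. The list held 5 genes of uptake and activation, 5 of triglyceride storage and its breakdown, 4 of the carnitine shuttle, 16 of beta-oxidation and 3 regulators. In the platform's annotation 31 of the 33 had a probe set of their own. These 31 genes were read by 61 of the 45101 probe sets on the array. All 31 passed the filter on dim signals, with 55 of their probe sets among the 24751 tested. No probe set carried the name of Acsl1, an enzyme that activates fatty acids in heart, and the only probe set of Cpt1b, the muscle form of carnitine palmitoyltransferase 1, carried several gene names, so neither was analysed here.

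Hearts came from male mice aged 6 to 8 weeks, which were either MT-/- (null for the metallothioneins MT-I and MT-II, small metal-binding proteins) or MT+/+, the corresponding wild type. Each mouse received either doxorubicin (DOX, a chemotherapy agent of the anthracycline class with known cardiac toxicity), once at 15 mg/kg into the peritoneum, or saline, and was killed on day 4. The 4 groups were MT-/- with DOX, MT-/- with saline, MT+/+ with DOX and MT+/+ with saline, each with 2 arrays labelled as biological replicates, so p-values measure the spread between these mice. No source used here gives the type of MT allele or the mouse strain.

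Fatty acids reach the heart as lipoprotein triglycerides or bound to albumin. They are freed by lipases, carried across the membrane, activated with coenzyme A, and then either stored as triglyceride droplets or passed through the carnitine shuttle into mitochondria. There, beta-oxidation shortens the chain in repeated rounds of dehydrogenation, hydration, a second dehydrogenation and thiolysis, and electron transfer flavoprotein hands the electrons on to the respiratory chain. The nuclear receptor PPAR alpha and its coactivator PGC-1 alpha are the best known activators of these genes in heart.

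After DOX, the genes of both main triglyceride lipases rose in the heart, Pnpla2 by 1.80-fold and Lipe by 1.62-fold averaged over the genotypes. The uptake genes Lpl and Cd36 and the auxiliary oxidation gene Decr1 rose by smaller amounts, while Fabp4 and Cpt2 fell. The calls of Cd36, Fabp4 and Cpt2 were lost in several other fits, some of which left out a single array. That of Lpl was lost in a fit without the mean-variance trend. Of the 16 oxidation genes, Decr1 alone was called, and another probe set of Decr1 moved the other way. Between MT-/- and MT+/+ hearts no fatty acid gene passed the threshold in the fit without a replicate block. With the replicate number as a block, 3 of the 31 genes tested passed averaged over treatments.

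Within a group the correlation between arrays was 0.976 to 0.984, and between groups it was 0.924 to 0.985. Mt1 and Mt2 gave signal on the arrays labelled MT-/-, with deposited Mt1 intensities of 12549 and 12850 under DOX and 4667 and 5322 under saline, against 6735 and 9285 under DOX and 3722 and 4034 under saline on arrays labelled MT+/+. Mt2 read 2218 and 2213 on MT-/- DOX arrays and 968 and 1018 on MT-/- saline arrays, against 1210 and 2732 on MT+/+ DOX arrays and 452 and 485 on MT+/+ saline arrays. Over both treatments the Mt1 level of MT-/- arrays exceeded that of MT+/+ arrays by log2 0.50 (limma, Benjamini-Hochberg adjusted p 0.0425) and Mt2 differed by +0.58 (adjusted p 0.301), so the labels are used below as names of the groups. Another tested Mt1 probe set was dim, at percentiles 39.8 to 57.9 over the arrays. Where the Mt1 and Mt2 probe sets lie relative to the null alleles was not tested. The 3'/5' signal ratio of the actin control, a measure of RNA integrity, was 0.913 and 1.18 on MT-/- DOX arrays and 1.14 and 1.23 on MT-/- saline arrays, and 0.948 and 1.05 on MT+/+ DOX arrays and 1.15 and 1.24 on MT+/+ saline arrays. That of Gapdh was 0.984 to 1.05 over the 8 arrays, with DOX and saline arrays overlapping.

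Marker genes of the cell types in a heart moved with DOX, and their part in the results below was not tested. Summed over 8 cardiomyocyte markers, the intensity was 104905 to 109365 on MT-/- DOX arrays and 115843 to 117501 on MT-/- saline arrays, and 108429 to 110923 on MT+/+ DOX arrays and 113255 to 115185 on MT+/+ saline arrays. Myh6, Ryr2, Tnni3 and Actc1 were called lower after DOX and the other 4 were not called. Of these 4, Myl2 was the brightest probe set on every array. Quantile normalization gave it the same value on all 8, so it could not be called. The 10 endothelial markers summed to 6548 to 6752 on MT-/- DOX arrays and 7211 to 8326 on MT-/- saline arrays, and to 5261 to 6035 on MT+/+ DOX arrays and 6448 to 6783 on MT+/+ saline arrays, with Cldn5, Emcn and Kdr called lower. Averaged changes were negative for 8 and positive for 2 of the 10, from -0.79 to +0.51, with 0 called higher. Vwf was higher on DOX than on saline arrays within each genotype. All 7 macrophage markers were called lower, and summed to 5255 to 5719 on MT-/- DOX arrays and 7769 to 9468 on MT-/- saline arrays, and to 4066 to 4764 on MT+/+ DOX arrays and 8206 to 9502 on MT+/+ saline arrays. Of 6 fibroblast markers Col1a1, Col3a1 and Lum were called lower, and the list summed to 9834 to 10583 on MT-/- DOX arrays and 14074 to 16273 on MT-/- saline arrays, and to 8826 to 10070 on MT+/+ DOX arrays and 13123 to 13621 on MT+/+ saline arrays. Of 5 red cell markers Alas2 and Hbb-b2 were called lower, with sums of 341 to 342 on MT-/- DOX arrays and 1354 to 1809 on MT-/- saline arrays, and of 352 to 401 on MT+/+ DOX arrays and 1074 to 1749 on MT+/+ saline arrays. Of 8 white fat markers 5 had a probe set, and the sum of their brightest probe sets lay between 288 and 374 on every array. Another tested probe set of the marker Car3 varied more, from percentile 5.38 to 81.5 over the arrays. Of the 5 markers, Adipoq and Lep, which define fat cells, lay below the array median throughout, at percentiles 10.4 to 40.4 and 7.91 to 26.1. Among 3 brown fat markers, which summed to 684 to 720 on MT-/- DOX arrays and 503 to 522 on MT-/- saline arrays, and to 789 to 958 on MT+/+ DOX arrays and 546 to 574 on MT+/+ saline arrays, Cidea was called higher after DOX. Ucp1, which defines brown fat cells, lay between percentiles 40.5 and 53.3. No marker of these lists was called between the genotypes. In whole hearts, fewer cells of a type and less RNA per cell cannot be told apart.

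DOX was compared with saline in each genotype and as the mean of both effects, which uses all 8 arrays. A change was called at a limma adjusted p under 0.05, with Benjamini-Hochberg adjustment over all 24751 probe sets, and the brightest tested probe set stood for its gene. Log2 changes are those of log2(intensity + 16) after quantile normalization, each error after ± is the standard error from that fit, and intensities are quoted as deposited. Averaged over genotypes, 5 of the 31 genes rose and 2 fell. The share of 22.6% compares with 14.8% of all 13008 genes tested (6.98% higher and 7.81% lower) and 13.9% of all probe sets. On the normalized scale the DOX and saline arrays did not overlap for 9 of the 31 genes (these 7, Hadhb and Hadh), and for 18.4% of all probe sets. The median change of the 31 genes was log2 +0.04, against -0.01 over all genes. By step, 2 of 4 uptake genes rose and 1 fell, 2 of 5 storage genes rose, 1 of 3 shuttle genes fell, 1 of 16 oxidation genes rose, and none of the 3 regulators was called. With the replicate number as a block, 11 genes passed, 7 higher and 4 lower, or 35.5% against 28.3% of all genes in the same fit. Without MT+/+ saline 2 the count was 4, all higher.

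**Figure D1:**
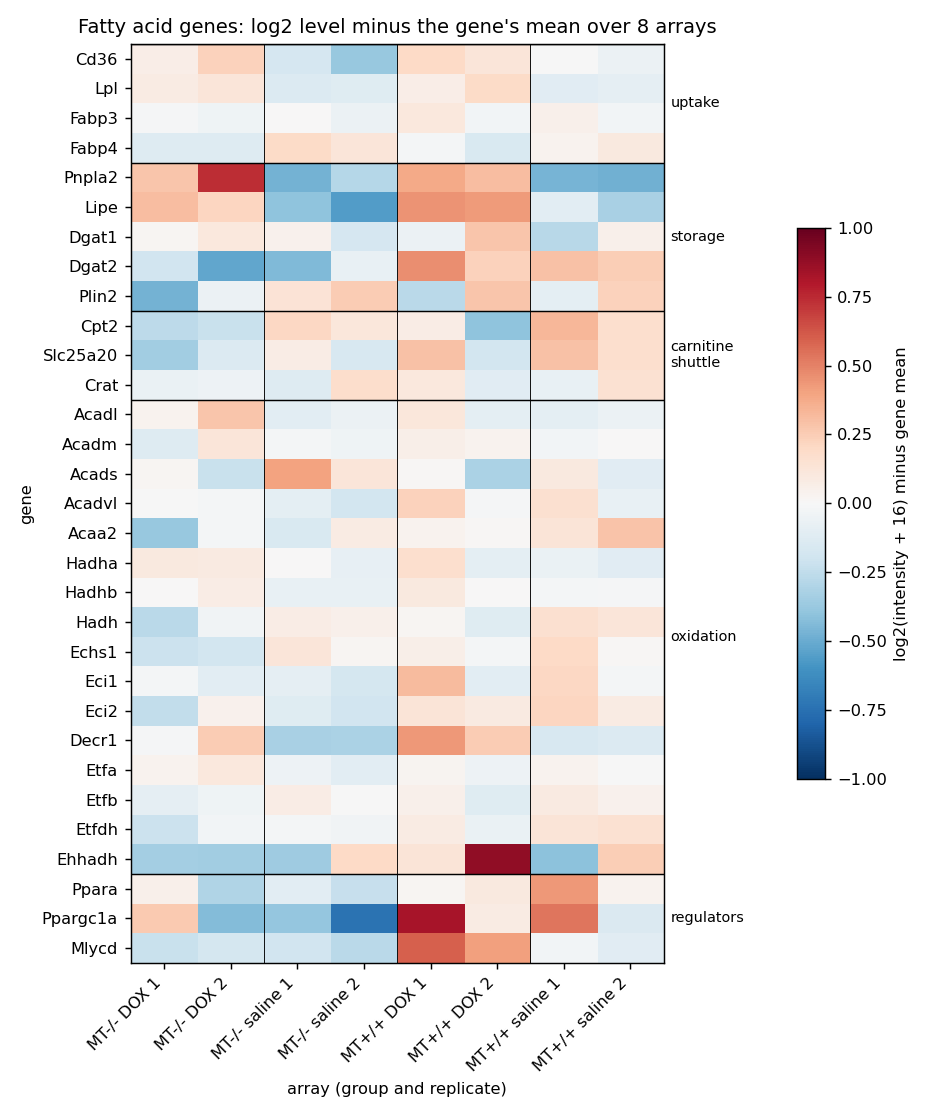
Levels of the 31 fatty acid genes on the 8 arrays, as log2(intensity + 16) of the brightest probe set minus the gene's mean over all arrays, with arrays grouped as MT-/- DOX, MT-/- saline, MT+/+ DOX and MT+/+ saline. Pnpla2 and Lipe are red on the 4 DOX arrays and blue on the 4 saline arrays, while most oxidation genes stay pale on all 8.

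Uptake begins with lipoprotein lipase, the enzyme that frees fatty acids from circulating triglycerides at the capillary wall. Its gene Lpl had intensities of 14466 and 15368 on MT-/- DOX arrays and 12521 and 12758 on MT-/- saline arrays, and of 14451 and 15372 on MT+/+ DOX arrays and 12514 and 13093 on MT+/+ saline arrays. All 4 DOX arrays lay above all 4 saline arrays. The averaged change was log2 0.23 ± 0.04 (1.17-fold, limma adjusted p 0.00691), and it missed the threshold under eBayes without the mean-variance trend (adjusted p 0.0949). The other Lpl probe set was called as well, at log2 +0.44 ± 0.06 (adjusted p 0.00270).

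Cd36 encodes the main fatty acid transporter of the heart cell membrane. It gave 6451 and 7356 on MT-/- DOX arrays and 5412 and 4868 on MT-/- saline arrays, against 6972 and 6823 on MT+/+ DOX arrays and 6048 and 5989 on MT+/+ saline arrays. The DOX and saline arrays did not overlap. Cd36 rose by log2 0.31 ± 0.07 (1.24-fold, adjusted p 0.0169), a call that ended when MT+/+ saline 2 was left out (adjusted p 0.0581), likewise for MT+/+ DOX 1 (0.0597) and MT-/- saline 2 (0.0626), under eBayes without trend (0.0544) and as the mean of its 3 probe sets (0.0501). Its other probe sets had +0.26 (adjusted p 0.0426) and +0.16 (0.339).

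The cytosolic fatty acid carriers did not follow. Fabp4, which in heart is best known from endothelial cells, gave 8014 and 8275 on MT-/- DOX arrays and 10091 and 9598 on MT-/- saline arrays, and 8601 and 8099 on MT+/+ DOX arrays and 8978 and 9581 on MT+/+ saline arrays. Every DOX array lay below every saline array. Fabp4 fell by 0.22 on the log2 scale (SE 0.05, adjusted p 0.0187), and the markers of endothelial cells were in part lower on the same arrays, as given above. The call ended when MT+/+ saline 2 was left out (0.0687), likewise for MT+/+ DOX 2 (0.0685) and MT-/- saline 1 (0.0885), and under median centring (0.0614), eBayes without trend (0.114) and the mean of its probe sets (0.411). Its other 3 probe sets had -0.18, -0.13 and +0.04, none called. Fabp3, the carrier of the heart muscle cell, had intensities between 13184 and 14784 on the 8 arrays and a change of +0.01 ± 0.04 (95% interval -0.09 to 0.11, adjusted p 0.916). It lay at percentiles 99.94 to 99.97, and whether the arrays read changes in full at that brightness was not tested.

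**Figure D2:**
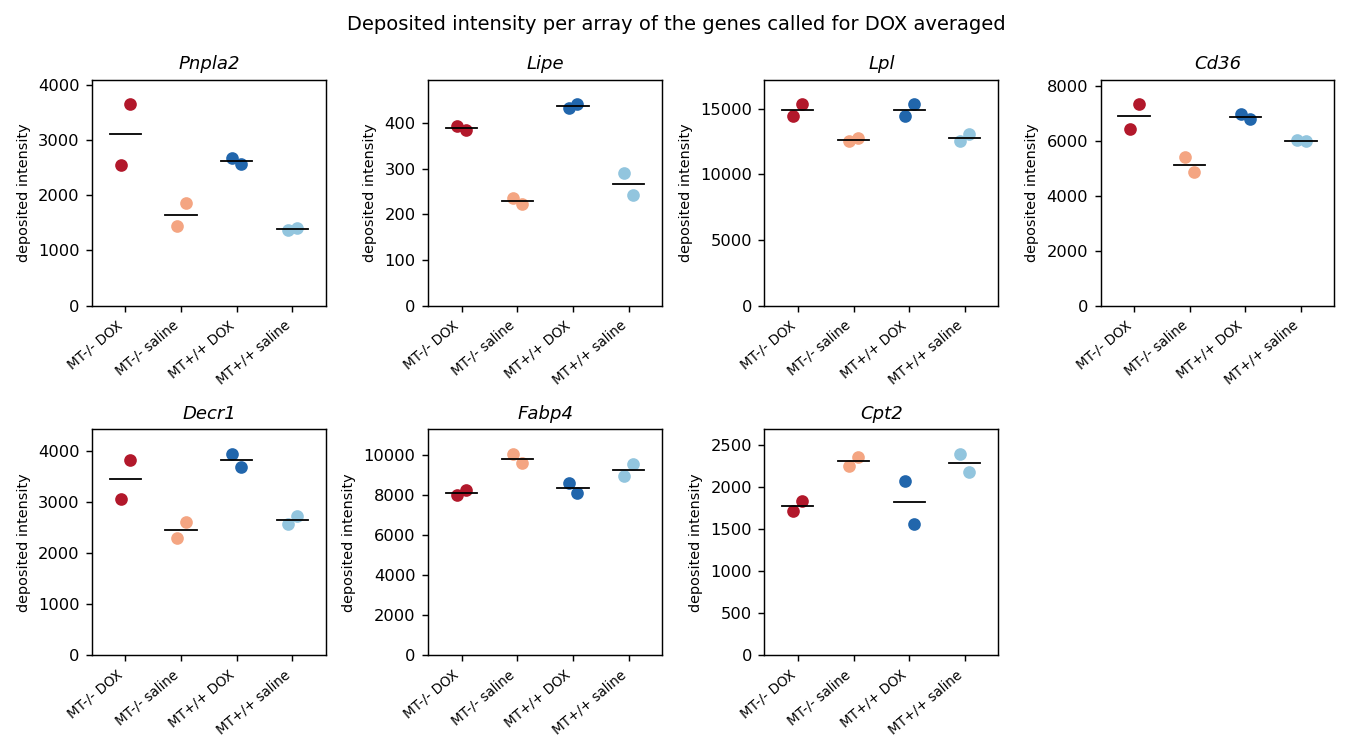
Deposited intensity of the 7 genes called for DOX averaged over the genotypes, with 1 point per array and a line at each group's mean, for MT-/- DOX, MT-/- saline, MT+/+ DOX and MT+/+ saline. In each panel the 4 DOX points lie on 1 side of the 4 saline points.

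Storage genes held the 2 largest DOX changes of the 31. Adipose triglyceride lipase, encoded by Pnpla2, removes the fatty acid that starts triglyceride breakdown. Pnpla2 had intensities of 2554 and 3654 on MT-/- DOX arrays and 1442 and 1852 on MT-/- saline arrays, and of 2668 and 2574 on MT+/+ DOX arrays and 1378 and 1411 on MT+/+ saline arrays. The lowest DOX array stood above the highest saline array. The change was log2 +0.85 ± 0.11 (1.80-fold, adjusted p 0.00205).

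Lipe encodes hormone-sensitive lipase, which acts mainly on the diglycerides that follow. It gave 394 and 385 on MT-/- DOX arrays and 235 and 222 on MT-/- saline arrays, and 434 and 443 on MT+/+ DOX arrays and 290 and 243 on MT+/+ saline arrays. These groups did not overlap either, and Lipe rose by log2 0.70 ± 0.10 (1.62-fold, adjusted p 0.00281). The averaged calls of Pnpla2 and Lipe were kept under each of the 17 alternatives run on them, 8 of which left out 1 array. Each gene had a further probe set that was too dim to test.

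The other storage genes were not called. Dgat1 and Dgat2 encode the acyltransferases that complete a triglyceride, and their averaged changes were +0.17 ± 0.12 (adjusted p 0.398) and -0.01 ± 0.11 (0.975). Plin2 encodes a coat protein of lipid droplets, and gave 580 and 830 on MT-/- DOX arrays and 899 and 1053 on MT-/- saline arrays, against 670 and 1008 on MT+/+ DOX arrays and 711 and 917 on MT+/+ saline arrays. Its DOX and saline arrays overlapped in MT+/+ but not in MT-/-. Its averaged change was -0.26 ± 0.16 (adjusted p 0.335). In MT-/- alone it was -0.46 ± 0.22 (0.289), or adjusted p 0.0348 with the replicate block.

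Pnpla2, Lipe and Cd36 moved together under DOX, and their promoter windows are shown for the letters around their start sites. RefSeq (build GRCm38.p6) gave windows for 25 of the 33 genes, each from 250 bases before to 50 bases after an annotated start, and none for Lpl, Fabp4, Dgat1, Dgat2, Cpt1b, Crat, Acaa2 and Decr1. Capitals mark matches on either strand to AGGTCA (a nuclear receptor half-site), GTAAACA (a FOXO site), AGAACA (a glucocorticoid receptor half-site), GGGCGG (a GC box) and CACGTG (an E-box). Pnpla2 lies at chr7:141454938-141455237 on the plus strand, Lipe has windows at chr7:25395938-25396237 and chr7:25390063-25390362 on the minus strand, and Cd36 lies at chr5:17835847-17836146 on the minus strand, each printed in the gene's own direction.
Pnpla2: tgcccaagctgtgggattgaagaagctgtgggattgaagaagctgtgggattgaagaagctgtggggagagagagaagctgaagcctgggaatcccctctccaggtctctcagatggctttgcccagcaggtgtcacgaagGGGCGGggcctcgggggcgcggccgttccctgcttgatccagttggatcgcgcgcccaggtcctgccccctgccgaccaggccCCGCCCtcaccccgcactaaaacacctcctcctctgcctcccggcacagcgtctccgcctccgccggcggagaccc
Lipe, window 1: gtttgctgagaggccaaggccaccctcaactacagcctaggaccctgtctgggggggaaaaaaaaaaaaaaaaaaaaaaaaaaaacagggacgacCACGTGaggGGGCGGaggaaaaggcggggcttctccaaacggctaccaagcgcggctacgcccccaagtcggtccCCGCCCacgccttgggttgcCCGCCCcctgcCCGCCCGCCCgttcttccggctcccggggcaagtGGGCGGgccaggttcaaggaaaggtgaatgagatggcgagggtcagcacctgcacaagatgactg
Lipe, window 2: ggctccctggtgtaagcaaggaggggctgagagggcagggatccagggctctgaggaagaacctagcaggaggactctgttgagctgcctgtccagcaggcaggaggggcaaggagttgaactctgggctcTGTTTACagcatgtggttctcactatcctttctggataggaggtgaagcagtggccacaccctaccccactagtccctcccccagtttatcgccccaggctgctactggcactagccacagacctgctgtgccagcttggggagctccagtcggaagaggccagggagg
Cd36: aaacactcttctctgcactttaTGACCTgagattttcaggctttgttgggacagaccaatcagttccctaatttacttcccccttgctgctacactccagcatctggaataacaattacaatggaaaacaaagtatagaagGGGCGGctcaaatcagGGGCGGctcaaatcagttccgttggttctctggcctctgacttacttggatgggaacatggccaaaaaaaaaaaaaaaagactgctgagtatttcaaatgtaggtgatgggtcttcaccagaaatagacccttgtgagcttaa
The Pnpla2 window held 2 GC boxes and none of the other motifs. The first Lipe window held 6 GC boxes, 2 of which overlapped, and 1 E-box, and the second held 1 FOXO site. The Cd36 window held 2 GC boxes and 1 nuclear receptor half-site.

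Over the 27 windows of the 25 genes, GGGCGG was found in 19, AGGTCA in 5, AGAACA in 2, CACGTG in 2 and GTAAACA in 1. Of all 32851 mouse promoter windows of the same length, 35.7% held GGGCGG, 16.3% AGGTCA, 19% AGAACA, 7.15% CACGTG and 3.65% GTAAACA. The DR1 element bound by PPAR with RXR, searched in its strictest spelling as a pair of AGGTCA half-sites with a single base between them, was in none of the 27 windows and in 0.0396% of all windows. A match says only that these letters are present.

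In the carnitine shuttle, Cpt2 fell. Carnitine palmitoyltransferase 2 turns acylcarnitine back into acyl-CoA on the inner mitochondrial membrane. Cpt2 gave 1710 and 1835 on MT-/- DOX arrays and 2249 and 2350 on MT-/- saline arrays, and 2072 and 1554 on MT+/+ DOX arrays and 2393 and 2179 on MT+/+ saline arrays. The 4 DOX arrays lay below the 4 saline arrays, although MT+/+ DOX 1 came close to MT+/+ saline 2. The change was -0.41 ± 0.11 (1.33-fold lower, adjusted p 0.0436), and the other Cpt2 probe set had -0.27 ± 0.15 (0.283).

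The Cpt2 call stood near the threshold. Of the 8 arrays, MT+/+ DOX 1 alone could be left out with the call kept. Leaving out a MT-/- DOX array gave adjusted p 0.0748 (replicate 1) or 0.0892 (replicate 2), a MT-/- saline array 0.143 or 0.0961, MT+/+ DOX 2 0.104, and a MT+/+ saline array 0.134 or 0.0742. The call was lost also under the deposited scaling (0.0562), median centring (0.0813), no filter (0.0530), eBayes without trend (0.0518) and the mean of its probe sets (0.102), so that 5 of 17 alternatives kept it. Slc25a20, the carrier that swaps acylcarnitine for carnitine across the inner membrane, changed by -0.18 ± 0.12 (adjusted p 0.395). Crat, which makes acetylcarnitine from acetyl-CoA, had -0.06 ± 0.10 (0.779). Both values lay within the spread between arrays.

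Beta-oxidation genes showed small changes, most of them not called. Decr1 encodes 2,4-dienoyl-CoA reductase, an auxiliary enzyme for unsaturated chains. Its brightest probe set gave 3065 and 3810 on MT-/- DOX arrays and 2301 and 2609 on MT-/- saline arrays, and 3942 and 3685 on MT+/+ DOX arrays and 2567 and 2724 on MT+/+ saline arrays. These values did not overlap, and the change was log2 +0.47 ± 0.08 (1.39-fold, adjusted p 0.00739). Its other probe set gave 574 and 779 on MT-/- DOX arrays and 802 and 859 on MT-/- saline arrays, and 980 and 871 on MT+/+ DOX arrays and 1060 and 1161 on MT+/+ saline arrays. That probe set pointed the other way in both genotypes, with -0.32 ± 0.11 (adjusted p 0.0842). The mean of both was +0.07 (0.681), so the direction for Decr1 rests on which probe set is read.

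The other 15 oxidation genes had averaged changes between log2 -0.26 and +0.17. Of the acyl-CoA dehydrogenases, which take the first electrons from chains of different lengths, the very-long-chain Acadvl had +0.10 ± 0.08, the long-chain Acadl +0.16 ± 0.07, the medium-chain Acadm +0.04 ± 0.06 and the short-chain Acads -0.26 ± 0.12. None was called (limma adjusted p 0.473, 0.171, 0.700 and 0.224 in this order), although Acads passed with the replicate block (0.0266). Acads gave 859 and 770 on MT-/- DOX arrays and 1115 and 1007 on MT-/- saline arrays, and 856 and 694 on MT+/+ DOX arrays and 865 and 756 on MT+/+ saline arrays. It overlapped between treatments in MT+/+ and not in MT-/-.

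Both subunits of the mitochondrial trifunctional protein, which carries out the later steps on long chains, had small positive values, with +0.13 ± 0.07 for Hadha (adjusted p 0.282) and +0.09 ± 0.04 for Hadhb (0.193). Enzymes that take the same steps on shorter chains had negative ones. They were -0.18 ± 0.07 for the hydratase Echs1 (adjusted p 0.158), -0.20 ± 0.06 for the dehydrogenase Hadh (0.0662) and -0.18 ± 0.09 for the thiolase Acaa2 (0.270). Hadh gave 7294 and 8655 on MT-/- DOX arrays and 8917 and 9074 on MT-/- saline arrays, and 8690 and 8233 on MT+/+ DOX arrays and 9861 and 9587 on MT+/+ saline arrays. All its DOX arrays lay below its saline arrays, and it was called with the replicate block (0.0298) and without MT-/- DOX 2 (0.0205). The contrast between the chain-length classes was not tested.

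The isomerase genes Eci1 and Eci2, which move double bonds of unsaturated chains, had +0.04 ± 0.10 and +0.01 ± 0.09. For electron transfer, Etfa and Etfb, the flavoprotein's subunits, had +0.06 ± 0.05 and -0.10 ± 0.06, and Etfdh, which passes the electrons to ubiquinone, had -0.11 ± 0.06. Their adjusted p lay between 0.294 and 0.961. Ehhadh, the bifunctional enzyme of peroxisomal oxidation, was dim, with 67.6 and 67.2 on MT-/- DOX arrays and 67.0 and 108 on MT-/- saline arrays, and 101 and 186 on MT+/+ DOX arrays and 69.0 and 111 on MT+/+ saline arrays. Array medians were 80.1 to 87.5, and its averaged change of +0.17 ± 0.21 (0.688) joins opposite signs in the 2 genotypes.

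**Figure D3:**
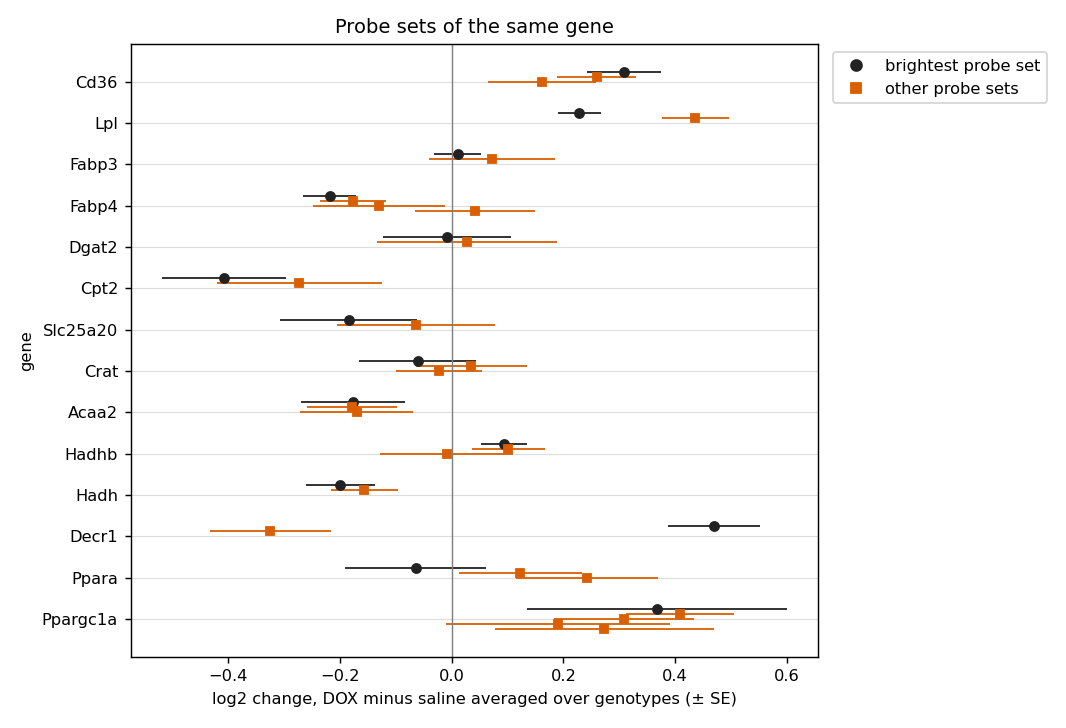
Log2 change after DOX, averaged over genotypes, for each tested probe set of the 14 fatty acid genes that had more than 1, with SE bars; black circles mark the brightest probe set and orange squares the others. The probe sets of Lpl and Hadh share a sign, whereas those of Decr1 lie at +0.47 and -0.32.

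Of the regulators, Ppara encodes the receptor PPAR alpha, Ppargc1a the coactivator PGC-1 alpha, and Mlycd malonyl-CoA decarboxylase, which removes the inhibitor of carnitine palmitoyltransferase 1. Ppara had -0.06 ± 0.13 after DOX (adjusted p 0.810), with +0.12 and +0.24 for its other probe sets. Ppargc1a gave 592 and 376 on MT-/- DOX arrays and 374 and 312 on MT-/- saline arrays, and 888 and 538 on MT+/+ DOX arrays and 684 and 435 on MT+/+ saline arrays. Its replicates lay far apart, and the change of +0.37 ± 0.23 was not called (0.368), except with the replicate block (0.0146). All 5 of its probe sets were positive, from +0.19 to +0.41, and 1 of them was called (+0.41 ± 0.10, adjusted p 0.0257).

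Mlycd gave 578 and 631 on MT-/- DOX arrays and 601 and 615 on MT-/- saline arrays, and 1040 and 934 on MT+/+ DOX arrays and 633 and 605 on MT+/+ saline arrays. Only the MT+/+ DOX arrays stood apart from the rest. Its averaged change was +0.30 ± 0.09 (adjusted p 0.0680, or 0.0185 with the replicate block).

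In MT-/- hearts alone, DOX raised Pnpla2 (log2 +0.89 ± 0.16, adjusted p 0.0144), Lipe (+0.74 ± 0.14, 0.0171), Cd36 (+0.42 ± 0.09, 0.0338) and Lpl (+0.23 ± 0.06, 0.0471), and lowered Fabp4 (-0.29 ± 0.07, 0.0435). These 5 of 31 genes, or 16.1%, compare with 6.74% of all genes (2.76% higher and 3.98% lower) and 6.21% of all probe sets. In MT+/+ hearts alone, 2 of 31 rose (6.45%), Pnpla2 (+0.82 ± 0.16, adjusted p 0.0357) and Lipe (+0.65 ± 0.14, 0.0482), against 2.68% of all genes (1.24% higher) and 2.48% of all probe sets. With the replicate block 9 genes passed in MT-/- (29%, against 17.8% of all genes in that fit) and 5 in MT+/+ (16.1%, against 11.8%). Those added were Acads (adjusted p 0.0379), Decr1 (0.0194), Plin2 and Ppargc1a (0.0321) in MT-/-, and Decr1 (0.0176), Lpl (0.0131) and Mlycd (0.0120) in MT+/+.

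With 2 arrays a group these calls were fragile. In MT-/- none of the 5 was kept when either MT-/- saline array or MT-/- DOX 2 was left out. Pnpla2 then had adjusted p 0.112 (saline 1), 0.0601 (saline 2) and 0.0635 (DOX 2), and Lipe 0.0848, 0.142 and 0.0724. The count in MT-/- was 2 with either MT+/+ saline array left out and 3 with MT+/+ DOX 1 left out. In MT+/+ neither gene passed once any MT+/+ array was left out (adjusted p up to 0.168 for Pnpla2 and up to 0.205 for Lipe) or either MT-/- saline array (0.0599 and 0.0603 for Pnpla2), and with either MT-/- DOX array left out Lipe was lost and Decr1 passed (0.0359 and 0.0367).

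The interaction, taken as the MT-/- response to DOX minus the MT+/+ response, passed the threshold for none of the 31 genes by limma, and 0% of all 24751 probe sets were called (573, or 2.32%, had an unadjusted p under 0.05, and 1 probe set was called with the replicate block). The difference was +0.07 ± 0.22 for Pnpla2 (95% interval -0.43 to 0.57), +0.09 ± 0.19 for Lipe (-0.35 to 0.53), +0.23 ± 0.13 for Cd36 (-0.07 to 0.53), -0.14 ± 0.10 for Fabp4 (-0.36 to 0.08) and 0.00 ± 0.08 for Lpl (-0.18 to 0.18). The intervals are wide next to the effects for most of these genes. Mlycd had the smallest unadjusted p among the 31 genes, 0.0186, with -0.54 ± 0.19 (adjusted p 0.9995), and Ehhadh had -0.85 ± 0.42 (unadjusted p 0.0720).

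**Figure D4:**
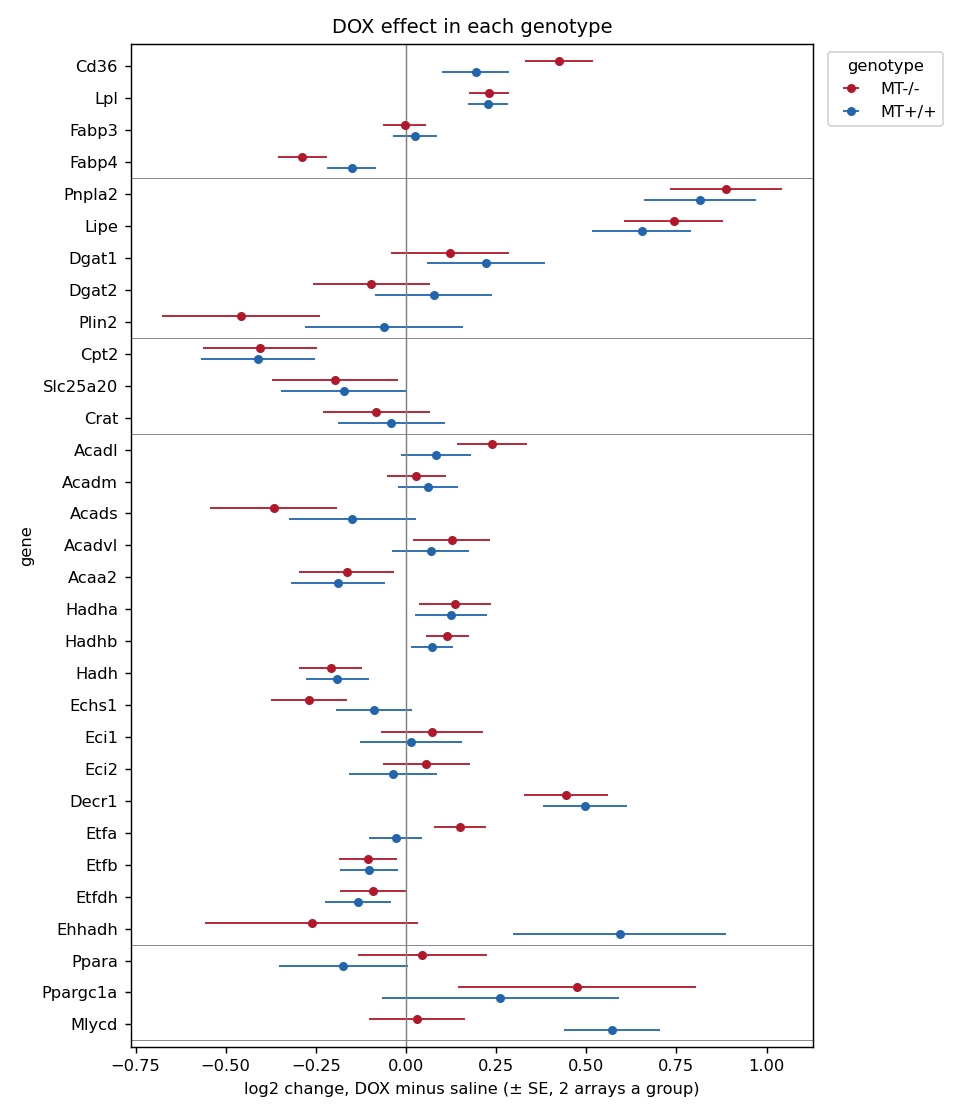
Log2 change, DOX minus saline, of the 31 fatty acid genes in MT-/- (red) and MT+/+ (blue) hearts, with SE bars from the fit on 2 arrays a group and lines between uptake, storage, shuttle, oxidation and regulator genes. Pnpla2 and Lipe lie at +0.65 to +0.89 in both genotypes, and the 2 genotypes are furthest apart for Ehhadh and Mlycd.

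Genotype was compared as MT-/- minus MT+/+, first by treatment and then as the mean of both differences. None of the 31 genes was called by limma in any of the 3 comparisons, against 0.884% of all genes and 0.905% of all probe sets averaged over treatments, 0.292% and 0.283% under DOX, and 0.177% and 0.186% under saline. At an unadjusted p under 0.05 the averaged comparison held 10 of the 31, where 13% of all probe sets did so. Averaged values were negative for 25 of the 31 genes, with a median of -0.09 against -0.01 over all genes. That split depends on the scaling, since 23 were negative under the deposited scaling and 16 under median centring (median -0.02, where that of all probe sets was +0.05).

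Dgat2 came nearest to the threshold. It gave 2102 and 1749 on MT-/- DOX arrays and 1655 and 2413 on MT-/- saline arrays, against 3129 and 2798 on MT+/+ DOX arrays and 2743 and 2751 on MT+/+ saline arrays. All 4 MT-/- arrays lay below all 4 MT+/+ arrays. The averaged difference was -0.62 ± 0.11 (1.53-fold lower, adjusted p 0.0523), and it passed with the replicate block (0.0151), without the filter on dim signals (0.0477) and without MT-/- DOX 1 (0.0412). The other Dgat2 probe set had -0.62 ± 0.16 (0.151).

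With the replicate block 3 of the 31 genes passed averaged over treatments (9.68%, against 4.91% of all genes in that fit), 2 under DOX (6.45%, against 1.61%) and 1 under saline (3.23%, against 0.807%). Mlycd and Ppargc1a passed with this block alone among the alternatives run. Mlycd had -0.43 ± 0.09 averaged (adjusted p 0.0928, or 0.0184 blocked) and -0.70 ± 0.13 under DOX (0.108, or 0.0165 blocked). The MT-/- DOX arrays lay below the MT+/+ DOX arrays, whereas under saline the intensities of both genotypes overlapped, with a difference of -0.16 ± 0.13 (0.765). Ppargc1a, whose values are given above, had -0.65 ± 0.23 averaged (0.295, or 0.00518 blocked) and -0.76 ± 0.33 under saline (0.578, or 0.0313 blocked). All 5 of its probe sets were negative, from -0.43 to -0.65. Ehhadh had -0.85 ± 0.29 under DOX (0.501, or 0.0440 blocked), at intensities near the array median.

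**Figure D5:**
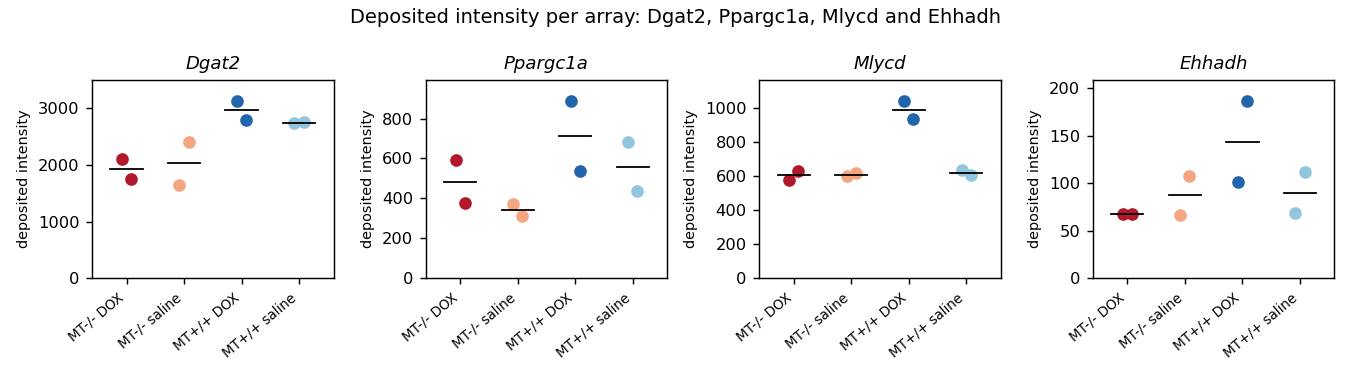
Deposited intensity of Dgat2, Ppargc1a, Mlycd and Ehhadh, with 1 point per array and a line at each group's mean, for MT-/- DOX, MT-/- saline, MT+/+ DOX and MT+/+ saline. The 4 MT-/- points of Dgat2 lie below its 4 MT+/+ points, and the MT+/+ DOX points of Mlycd stand above all others.

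Neither lipase was called by genotype, with +0.13 ± 0.11 for Pnpla2 (adjusted p 0.666) and -0.22 ± 0.10 for Lipe (0.385) averaged over treatments. Of the uptake genes Cd36 had -0.24 ± 0.09 under saline (0.533) and -0.01 ± 0.09 under DOX (0.994). Averaged differences of Cpt2, Slc25a20 and Crat lay between -0.28 and -0.04, and those of the 16 oxidation genes between -0.42 and +0.16.

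Around these genes, 70 others of the same pathway were read from lists, and 64 of these genes were tested. The lists were chosen by role but with earlier results of these data known, so their shares are no independent support. After DOX, 7 rose and 13 fell averaged over genotypes, or 31.2% against 14.8% of all genes, with a median of -0.10. With the replicate block 30 of the 64 were called (46.9%, against 28.3% of all genes in that fit). The count without the block fell when MT-/- DOX 2, MT+/+ DOX 2, MT+/+ saline 1 or MT-/- saline 1 was left out. Among 15 storage and lipolysis genes, 2 rose and 3 fell. The droplet coat gene Plin4 read 1870 and 2486 on MT-/- DOX arrays and 504 and 641 on MT-/- saline arrays, and 1425 and 1844 on MT+/+ DOX arrays and 539 and 576 on MT+/+ saline arrays. These groups lay far apart, and Plin4 rose by log2 1.67 ± 0.12 (3.17-fold, adjusted p 0.000187).

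The coat gene Plin3 rose too (+0.68, adjusted p 0.00545). Fitm1, needed to form droplets in muscle, fell by 1.10 on the log2 scale (adjusted p 0.000967), Mgll, the lipase of the last step, fell by 0.76 (0.00490), and G0s2, an inhibitor of the lipase that Pnpla2 encodes, fell by 0.86 (0.0459). G0s2 was named after its values were seen, and its call survived the loss of MT-/- DOX 1 but of no other array (adjusted p up to 0.149). Abhd5, the activator of the Pnpla2 lipase and likewise not chosen by its p, had -0.01 ± 0.18 (0.978).

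Among 13 other uptake and activation genes, 1 rose and 4 fell. Vldlr, a lipoprotein receptor, rose (+0.60, adjusted p 0.00587). The carrier gene Fabp5 (-1.0, 0.000371), the caveola gene Cav1 (-0.53, 0.00325), Lmf1, needed to mature lipoprotein lipase (-0.48, 0.00793), and the activating enzyme gene Acsl5 (-0.63, 0.00899, named after its values were seen) fell. Fabp5 and Cav1 are, like Fabp4, known from endothelial cells, whose markers, given above, did not all move the same way. Gpihbp1, also known from endothelial cells, was not called, but every DOX array lay above every saline array. On MT-/- arrays it gave 1721 and 2038 under DOX and 1579 and 1447 under saline. On MT+/+ arrays it gave 1680 and 1939 under DOX and 1207 and 1450 under saline. It was named after its values were seen, and the part of endothelial cells was not tested. Fabp5 read 952 and 928 on MT-/- DOX arrays and 2088 and 2255 on MT-/- saline arrays, and 1272 and 1122 on MT+/+ DOX arrays and 1840 and 2057 on MT+/+ saline arrays, with no overlap.

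Of 18 other oxidation and ketone genes, 1 rose and 5 fell. Oxct1, the first enzyme of ketone body use, fell by 0.61 on the log2 scale (adjusted p 0.00446), and the peroxisomal genes Abcd3 and Decr2 by 0.48 (0.0115) and 0.46 (0.0269). Hsd17b10, a mitochondrial dehydrogenase of short branched chains, rose (+0.32, 0.0393). Acot13 (-0.22, 0.0453) and Slc25a42 (-0.41, 0.0475), a thioesterase and a coenzyme A carrier, fell and were named after their values were seen. Acot13 lost its call for each array left out (adjusted p up to 0.167) and Slc25a42 for each but MT-/- DOX 1 (up to 0.170). Leaving out 1 array ended the call of Decr2 for 6 of the arrays (all but MT+/+ DOX 1 and MT-/- DOX 1, adjusted p up to 0.104), that of Hsd17b10 for 7 (all but MT-/- DOX 1, up to 0.147) and that of Abcd3 without MT-/- saline 1 (0.0501).

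Of 18 other regulators, 3 rose and 1 fell. Klf15, a transcription factor of lipid use in heart, rose by log2 1.51 ± 0.26 (2.84-fold, adjusted p 0.00670), with 852 and 2208 on MT-/- DOX arrays and 280 and 398 on MT-/- saline arrays, and 796 and 1264 on MT+/+ DOX arrays and 447 and 471 on MT+/+ saline arrays. Its DOX arrays differed more among themselves than its saline arrays did. The deacetylase genes moved apart, Sirt1 by +0.81 (0.0331) and mitochondrial Sirt3 by -0.61 (0.00717). Acacb, which makes malonyl-CoA at the mitochondrion, rose (+0.42, 0.0376). The calls of Sirt1 and Acacb were lost for 5 and 7 of the 8 single arrays left out (adjusted p up to 0.113 and 0.148), the exceptions being MT+/+ saline 2, MT-/- saline 2 and MT-/- DOX 1 for Sirt1 and MT-/- DOX 1 for Acacb.

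The same lists, chosen with earlier results of these data known, were read by genotype, and here too their shares are no independent support. Averaged over treatments, 3 of the 64 genes were lower on MT-/- arrays and 0 were higher, or 4.69% against 0.884% of all genes (0.484% lower). With the replicate block 10 were lower (15.6%, against 4.91% of all genes called in that fit, 2.63% lower). The count without the block was 1 with either MT+/+ saline array or MT+/+ DOX 2 left out. The 3 called without the block, Ucp3, Pdk4 and Angptl4, are known targets of the PPAR receptors. PPAR alpha is also a known activator of the fatty acid genes, none of which was called by genotype without the block. PPAR activity was not tested. Ucp3, a mitochondrial carrier, read 91.5 and 59.7 on MT-/- DOX arrays and 250 and 182 on MT-/- saline arrays, against 513 and 510 on MT+/+ DOX arrays and 272 and 396 on MT+/+ saline arrays. Every MT-/- array lay below every MT+/+ array, and the difference was -1.58 ± 0.17 averaged (2.98-fold lower, limma adjusted p 0.00481) and -2.52 ± 0.24 under DOX (0.00452). The call under DOX was lost without MT+/+ DOX 1 (0.0567) or MT+/+ DOX 2 (0.0506). Its interaction was -1.89 ± 0.34 (unadjusted p 0.000425, adjusted p 0.9995).

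Pdk4, the kinase that turns off glucose oxidation when fat is burned, read 1493 and 2025 on MT-/- DOX arrays and 2992 and 1833 on MT-/- saline arrays, against 5379 and 6830 on MT+/+ DOX arrays and 3891 and 4216 on MT+/+ saline arrays. Its groups did not overlap by genotype. The averaged difference was -1.34 ± 0.18 (adjusted p 0.0134), and it missed the threshold with a MT+/+ saline array left out (0.0581 for replicate 1 and 0.0532 for replicate 2) or MT+/+ DOX 2 (0.0708). Under DOX it was -1.87 ± 0.25 (0.0258), which missed for each array left out save the MT-/- saline pair (up to 0.239). Angptl4, a secreted inhibitor of lipoprotein lipase, differed by -0.81 ± 0.15 (0.0471), a call that survived the loss of MT-/- saline 1 but of no other array (up to 0.168). It was also lost under median centring (0.0509) and under eBayes without trend (0.0548).

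Plin5, the coat protein that ties droplets to mitochondria in heart, gave 1155 and 1135 on MT-/- DOX arrays and 1296 and 1345 on MT-/- saline arrays, against 1881 and 2139 on MT+/+ DOX arrays and 1094 and 1336 on MT+/+ saline arrays. The MT+/+ DOX arrays alone stood high. Averaged by genotype it had -0.43 ± 0.09 (adjusted p 0.0845, or 0.020 with the replicate block), and under DOX -0.85 ± 0.13 (0.0446), a call that no array could be left out of (up to 0.331). Its DOX change was -0.19 in MT-/- and +0.64 in MT+/+ (adjusted p 0.473 and 0.0446), and that interaction had an unadjusted p of 0.00152 and an adjusted p of 0.9995. Among the remaining genes named by rule, Acsl6 (-0.53, adjusted p 0.245), Agpat2 (-0.42, 0.139), Abcd3 (-0.45, 0.0827) and Oxct1 (-0.35, 0.166) were lower on MT-/- arrays with the replicate block (0.0237, 0.0352, 0.0153 and 0.0345) but not without it.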

How the data were processed

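RNA of 8 hearts was measured on one-colour Affymetrix arrays, 2 per genotype and treatment. Trizol was used to extract the RNA, of which 2 µg went into biotin-labelled cRNA, per the labels' protocols. The deposited values are 1 linear intensity per probe set and array, made with GCOS 1.4 per the submitters' processing notes; no source used here gives the signal algorithm, the scaling target or detection calls. Array medians of the deposited intensity were 80.1 to 87.5 and means trimmed by 2% at each end 172 to 186, so the arrays were quantile-normalized.

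The 64 control probe sets were left out. Of the other 45037, the platform annotation, which can be old, gave 1 symbol to 34945, several to 932 and none to 9160, and no gene was named from a probe set with several. Values were tested as log2(intensity + 16), a scale that understates changes at low signal. The filter kept probe sets whose signal was no lower than the median of the array for at least 2 of 8 arrays, and limma 3.58.1 in R 4.3.3 was fitted to the 4 group means (4 residual degrees of freedom, eBayes with trend, prior worth 4.66), two-sided, with Benjamini-Hochberg adjustment over 24751 probe sets in each of 7 comparisons. With 2 arrays a group no exact test was made, since 0.333 is the smallest p it could reach, and the number of arrays limits precision. The script was tested on simulated data in which 100 probe sets changed at each size. Of changes of log2 0.25, 0% were called in every comparison. Of changes of log2 1, 78% were called for DOX averaged, 83% for genotype averaged and 0% for the interaction. Fewer probe sets changed there than were called here for DOX, which makes the adjustment stricter, so the shares for DOX may not hold for these data.

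Deviations of same-numbered arrays from their group means correlated at 0.360 to 0.542 in all 6 pairs of groups, although the labels name no shared litter, batch or day. Replicate numbers were treated as pairing the arrays only in the alternative fit with the replicate block. The fit without the block is the one reported. The blocked value stands beside a result of a fatty acid gene where it changes the call, and is given only in part for the other pathway genes.

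The fatty acid genes, the pathway and marker lists and the tests were chosen with earlier results of these data known. Every fatty acid gene may be named. Of each other pathway list the 4 genes with the smallest p for DOX averaged and the 2 for genotype averaged were named. Mt1, Mt2, Pdk4 and Ucp3 were always named. G0s2, Abhd5, Acsl5, Gpihbp1, Acot13, Slc25a42 and Acad10 were named outside this rule. Alternatives were the deposited scaling, median centring, pseudocounts of 1 and 64, no filter and a stricter filter (6 of 8 arrays), eBayes without trend, the replicate block, only the compared groups, the mean of a gene's probe sets, and each array left out. Promoter windows are from RefSeq (GRCm38.p6).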

Additional observations from a re-analysis of the deposited data

How the results depend on the processing

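The count of fatty acid genes called depended on the setting. With the replicate number as a block (pairing the arrays) it was 11 for DOX averaged, 9 in MT-/-, 5 in MT+/+, 3 for genotype averaged, 2 under DOX and 1 under saline, against 7, 5, 2 and none of 31; the block likewise gave 10 other pathway genes for genotype averaged in place of 3, and 6702, 4188, 2740, 1202, 383, 209 and 1 probe sets of all for DOX averaged, in MT-/-, in MT+/+, genotype averaged, under DOX, under saline and the interaction. Beyond the genes named in the report, the block changed no call of a fatty acid gene. Fits of only the compared groups gave counts of 2 in MT-/- and 1 in MT+/+ (all probe sets 948 in MT-/- and 36 for genotype under DOX). The mean of a gene's probe sets gave 4 for DOX averaged, 3 in MT-/- and 4 in MT+/+ (over all, 143 for genotype averaged and 23 under saline, counted over genes and unnamed probe sets; over genes alone these were 118 and 19, against 115 and 23 by the brightest probe set). The fits without the eBayes trend, under median centring and without the filter were separate alternatives, read by the brightest probe set. The count was 4 for DOX averaged and 2 in MT-/- without the trend, and 3 in MT-/- under median centring. Without the filter it was 3 in MT-/-, 1 in MT+/+ and 1 for genotype averaged. For DOX averaged, both the mean of probe sets and the fit without trend called some genes that the reported fit did not. The mean of probe sets did so in MT+/+ too. The stricter filter gave 46 and 23 probe sets of all for genotype under DOX and under saline. With 1 array left out, the fatty acid counts were 4 to 7 for DOX averaged, 0 to 4 in MT-/-, 0 to 2 in MT+/+ and 0 to 1 for genotype averaged. Those of other pathway genes were 12 to 22 for DOX averaged and 1 to 3 for genotype averaged. Those of all probe sets were 1753 to 3838, 376 to 1998, 23 to 759, 88 to 202, 23 to 71, 13 to 50 and 0 to 1 in the order above.

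Of 3806 values of single fatty acid genes under alternatives, 3694 kept their direction and side of the threshold or were never called, 81 lost a call, 31 gained one and 0 reversed a call; 227 that were called in neither setting changed sign. Acad10, a pathway gene outside the 33, had -0.07 for DOX averaged by its brightest probe set (adjusted p 0.787) and +0.41 as the mean of its probe sets (0.0194). The causes were not tested. The intensities carry no detection calls, so low signals such as that of Ehhadh cannot be told from background.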
